A study of Rattus norvegicus with 30 samples.

Results

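Grin1, Grin2a, Grin2b and Gria1 encode subunits of the NMDA and AMPA receptors, the ligand-gated cation channels that carry most fast excitatory transmission in the brain. These 4 genes were taken by Ensembl identifier (ENSRNOG00000011726 for Grin1, ENSRNOG00000033942 for Grin2a, ENSRNOG00000008766 for Grin2b and ENSRNOG00000045816 for Gria1) from tables of 26404 genes, and all 4 passed the filter on low counts in every comparison. mRNA of the perilesional cortex, the ipsilateral thalamus and the hippocampus had been sequenced 3 months after the operation in 5 adult male Sprague-Dawley rats with traumatic brain injury (TBI, rats 6 to 10) and 5 sham-operated rats (rats 1 to 5), which gave 30 libraries from 10 animals. TBI was induced by lateral fluid percussion, in which a brief pressure pulse is delivered to the intact dura through a left craniectomy, and the sham-operated rats had the same craniectomy without the pulse. All rats of both groups had been anesthetized with a mixture of sodium pentobarbital, chloral hydrate, magnesium sulphate, propylene glycol and ethanol, and with isoflurane before the tissue was taken. The hippocampal piece was the dentate gyrus with part of CA3 according to the study's methods, while the labels call it dorsal hippocampus.

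An NMDA receptor contains the subunit encoded by Grin1, which binds the co-agonist glycine and is needed in every such receptor, together with subunits that bind glutamate. Grin2a and Grin2b encode the 2 main glutamate-binding subunits of the forebrain. Receptors with the Grin2b product prevail early in development and close slowly, and those with the Grin2a product close faster and gain share as the brain matures. Gria1 encodes a subunit of the AMPA receptor, which carries the fast part of the synaptic current and is inserted into synapses during long-term potentiation in the hippocampus. The protein sequences and the genome positions of the 4 genes were not analysed here, nor were the other subunits of these receptors or markers of cell types, because the tables used here pair no other identifier with a name. The labelled tissues were therefore not checked against their markers.

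Levels are given as CPM, the reads of a gene per 1000000 reads of its library, scaled by the TMM method over all 30 libraries. CPM does not correct for transcript length, so it compares 1 gene between samples but not different genes. Total counts were between 21992859 and 31799879 per library. In 2 hippocampal libraries, those of sham-operated rats 4 and 5, the 10 most counted genes held 44.1% and 40.9% of the counts, where the other hippocampal libraries had at most 16.4%. The study's methods left out hippocampal control libraries that aligned poorly, without naming them. In the cortex this share was 20.3% to 29.6% in the sham libraries and 14.1% to 23.8% in the TBI libraries. For rats 3 and 8 the hippocampal labels were in doubt, since of 39 genes away from the injury response that parted these rats at least 2-fold in the same direction in cortex and thalamus, none parted them as far that way in the hippocampus and 6 parted them as far in the opposite way. Rat 8 also parted from rats 1 and 4 more often in the opposite way (2 genes against 0 and 9 against 3), and none of the 20 pairs without rat 8 did so, so these counts do not single out rat 3. Hippocampal TBI results are given below with and without both pairs of libraries.

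**Figure D1:**
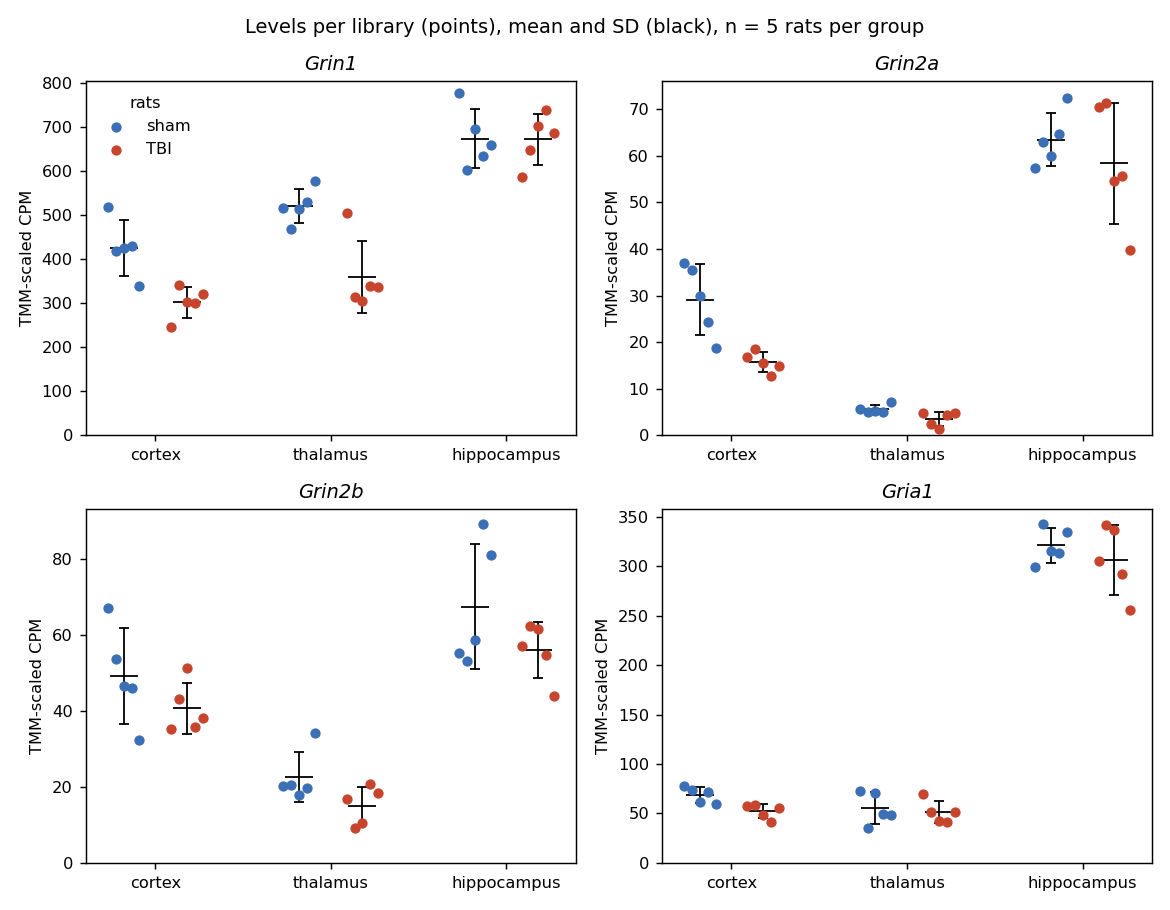
TMM-scaled CPM (y axis, from 0) of each gene in the cortex, thalamus and hippocampus, with 1 point per library (blue sham, red TBI, rats in numerical order from left to right) and the mean and SD of 5 rats in black. Gria1 in the hippocampus is at least 256 CPM in all libraries and at most 77.3 CPM in all libraries of the other areas, and Grin2a in the thalamus is at most 7.13 CPM.

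The first question was how the levels of these subunits differed between brain areas in sham-operated rats. Every one of the 4 genes had its highest mean in the hippocampus, and Grin2a and Gria1 differed most between areas. In the edgeR fit of the 15 sham libraries, 10 of the 12 differences between areas passed an adjusted p of 0.05. The background was 70.8% of all 17315 genes tested between cortex and thalamus, 44.4% between cortex and hippocampus and 67.6% between thalamus and hippocampus. According to the study's methods the thalamic libraries were read on another instrument with longer reads, whereas the labels name the same one for all, so that area and sequencing cannot be told apart in the differences that involve the thalamus if the methods hold.

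Grin1, the subunit of every NMDA receptor, differed by less than 1 on the log2 scale between any pair of areas. Sham rats 1 to 5 had 517, 417, 424, 430 and 339 CPM in the cortex. In the thalamus it was 514, 468, 514, 530 and 577 CPM. In the hippocampus it was 777, 601, 694, 634 and 658 CPM. The hippocampal libraries lay above all libraries of the other areas, as was found for 17.4% of genes against the cortex and 26% against the thalamus, while cortex and thalamus overlapped through rat 1. Scaled by total counts instead of TMM, sham rats 4 and 5 had 323 and 358 CPM in the hippocampus, which then overlapped with both other areas. On the log2 scale the level in the cortex differed from that in the hippocampus by -0.67 (SE 0.10, adjusted p = 4.87e-05 in edgeR's quasi-likelihood test), with the cortex lower in 5 of 5 rats. The thalamus differed from the hippocampus by -0.38 (SE 0.10, adjusted p = 0.00321 in edgeR), also lower in 5 of 5 rats, but with total counts in place of TMM scaling, which moved the median of all genes to 0.47, it was 0.10. Under the same scaling the cortex to hippocampus difference was -0.50 (adjusted p = 0.0800 in edgeR), where the median of all genes was at 0.19. The cortex differed from the thalamus by -0.29 (SE 0.10, adjusted p = 0.0200 in edgeR), but without rat 3, 4 or 5 the adjusted p in edgeR was 0.0793, 0.0843 and 0.199, with a difference of -0.16 without rat 5. The order of the Grin1 means was hippocampus, thalamus and cortex, and with each rat left out it stayed so, with the cortex to thalamus difference between -0.35 and -0.16. With total counts in place of TMM, which moved the median of all genes between cortex and thalamus to -0.31, that difference was -0.59, and the thalamus stood above the hippocampus as given above.

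Grin2a, the subunit of the faster NMDA receptors, had the widest range of the NMDA subunits. Sham rats 1 to 5 had 57.3, 62.9, 60.1, 64.7 and 72.5 CPM in the hippocampus. In the cortex it was 36.9, 35.5, 29.9, 24.3 and 18.7 CPM. In the thalamus it was 5.64, 4.92, 5.10, 4.98 and 7.13 CPM, from 137 to 199 reads per library. No library of one area reached into the range of another, and 25.6% of genes tested likewise had all cortical above all thalamic sham libraries, so that the order of hippocampus, cortex and thalamus held in all 5 rats. The hippocampus was 11.5-fold above the thalamus (log2 difference of thalamus from hippocampus -3.53, SE 0.17, adjusted p = 3.04e-12 in edgeR), and only 3.89% of genes tested differed as much between these areas. The cortex was 5.25-fold above the thalamus (log2 difference 2.39, SE 0.16, adjusted p = 4.34e-10 in edgeR) and lay below the hippocampus by a log2 difference of -1.14 (SE 0.15, adjusted p = 8.73e-06 in edgeR).

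Grin2b, the subunit of the slower receptors, followed the same order of means with wider overlap. Sham rats 1 to 5 had 55.2, 53.2, 58.8, 89.3 and 81.0 CPM in the hippocampus. In the cortex it was 67.1, 53.7, 46.6, 46.1 and 32.3 CPM. In the thalamus it was 20.3, 20.6, 18.0, 19.8 and 34.4 CPM. The 2 highest hippocampal values belong to rats 4 and 5, the libraries in which few genes held a large share of the counts, and rat 5 also had the highest thalamic and the lowest cortical value. The thalamus lay below the hippocampus by a log2 difference of -1.59 (SE 0.20, adjusted p = 2.00e-06 in edgeR), which was -1.31 without the hippocampal libraries of rats 4 and 5. With total counts in place of TMM it was -1.02, where the median of all genes was at 0.47. The cortex was 2.18-fold above the thalamus (log2 difference 1.13, SE 0.20, adjusted p = 8.04e-05 in edgeR), in 4 of 5 rats. Between cortex and hippocampus the difference of -0.46 did not pass the threshold (95% interval -0.88 to -0.04, adjusted p = 0.0677 in edgeR). It was -0.18 without the hippocampal libraries of rats 4 and 5 (adjusted p = 0.527 in edgeR), -0.20 with total counts in place of TMM (adjusted p = 0.537 in edgeR, median of all genes 0.19) and -0.65 without rat 1 (adjusted p = 0.0227 in edgeR).

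Gria1, the AMPA receptor subunit, set the hippocampus apart from both other areas. Sham rats 1 to 5 had 300, 343, 316, 313 and 335 CPM in the hippocampus, with a coefficient of variation of 5.46%. In the cortex it was 77.3, 74.0, 61.5, 72.1 and 59.4 CPM. In the thalamus it was 72.6, 35.5, 70.8, 49.1 and 48.8 CPM. All hippocampal libraries lay far above the rest, and the cortical and thalamic ranges overlapped. The hippocampus was 4.70-fold above the cortex (log2 difference of cortex from hippocampus -2.23, SE 0.16, adjusted p = 2.48e-09 in edgeR), and only 2.51% of genes tested differed as much between these areas. It was 5.85-fold above the thalamus (log2 difference of thalamus from hippocampus -2.55, SE 0.16, adjusted p = 9.31e-11 in edgeR). Cortex and thalamus differed by 0.32 (95% interval 0.00111 to 0.63, adjusted p = 0.0678 in edgeR), which passed the threshold without rat 1 (0.41, adjusted p = 0.0282 in edgeR) or rat 3 (0.48, adjusted p = 0.0172 in edgeR) and was 0.0023 with total counts in place of TMM (adjusted p = 0.993 in edgeR). Without the hippocampal libraries of rats 4 and 5, the cortex differed from the hippocampus by -0.70 for Grin1, -1.05 for Grin2a and -2.21 for Gria1, and the thalamus by -0.41, -3.44 and -2.53, all still called in edgeR. Leaving out the hippocampal library of rat 3 changed no call of the 4 genes between sham areas, and neither did taking the rat as a block.

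**Figure D2:**
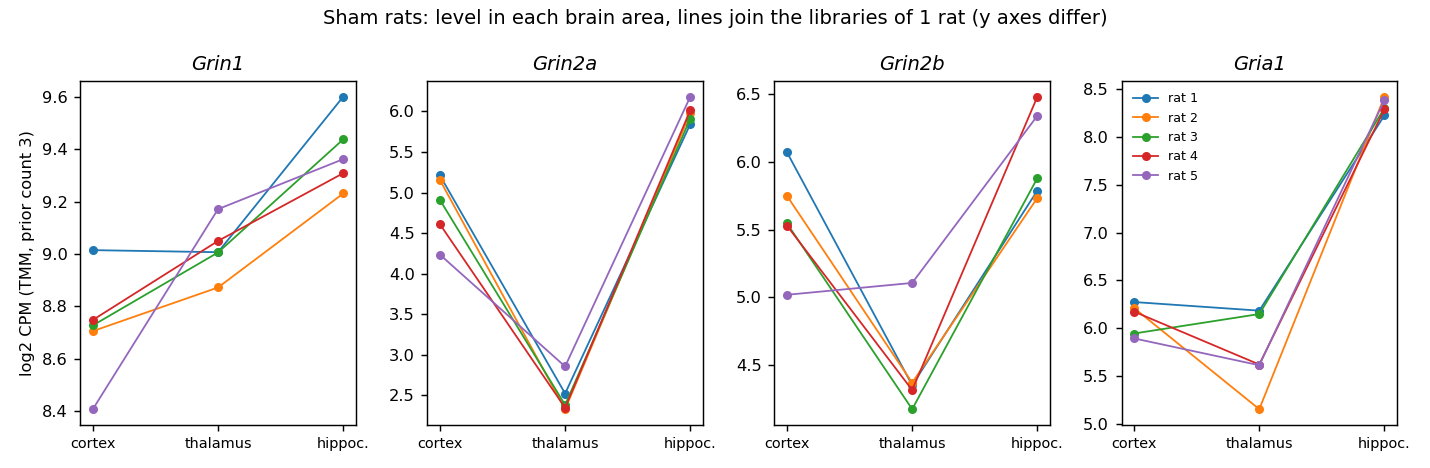
log2 CPM of each gene (y axes differ) in the 3 brain areas of the 5 sham-operated rats, with 1 line per rat. For Grin2a all lines dip in the thalamus, for Gria1 all rise steeply to the hippocampus, and for Grin2b the line of rat 5 runs apart from the others between cortex and thalamus.

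The second question was whether TBI changed these subunits 3 months later. In the perilesional cortex, Grin2a, Grin1 and Gria1 fell after TBI, with Grin2a losing most, and Grin2b was not called. That is 3 of the 4 members lower at an adjusted p under 0.05 in edgeR, where 11.6% of all genes tested in the cortex were called lower. Because whole tissue was sequenced, fewer cells of a type and less RNA per cell cannot be told apart.

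Cortical Grin2a stood at 16.7, 18.5, 15.4, 12.8 and 14.8 CPM in TBI rats 6 to 10, where the sham rats had 36.9, 35.5, 29.9, 24.3 and 18.7 CPM. All 5 TBI libraries lay below all sham libraries, though sham rat 5 stood only just above the highest TBI value, and the sham values spread more widely than those after TBI. Scaled by total counts instead of TMM, TBI rat 6 had 20.5 CPM and sham rat 5 had 18.2 CPM, so that the groups overlapped. With TMM, such a complete fall occurred in 9.1% of all cortical genes tested. The log2 fold change was -0.87 (SE 0.16, 95% interval -1.22 to -0.52, adjusted p = 0.00191 in edgeR), a level 1.83-fold lower, and only 0.535% of genes tested in the cortex fell as far or further. Leaving out each rat in turn moved it between -0.98 and -0.76, always past the threshold.

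Grin1 in the cortex was 245, 341, 302, 300 and 320 CPM in TBI rats 6 to 10, against 339 to 517 CPM in the sham-operated rats. The groups overlapped only through TBI rat 7 with 341 CPM and sham rat 5 with 339 CPM. Its log2 fold change was -0.47 (SE 0.11, adjusted p = 0.00495 in edgeR), which is 1.39-fold lower. Gria1 was 57.6, 59.0, 48.8, 41.7 and 55.4 CPM in TBI rats 6 to 10. All lay below the lowest sham value of 59.4 CPM, rat 7 only just. Its groups thus did not overlap, as was found in this direction for 9.1% of cortical genes. Scaled by total counts instead, TBI rat 6 had 70.7 CPM, above all sham rats at 57.6 to 67.7 CPM. The log2 fold change of Gria1 was -0.37 (SE 0.10, adjusted p = 0.0155 in edgeR), which is 1.29-fold lower. Both genes stayed past the threshold with each rat left out, with an adjusted p in edgeR of at most 0.0158 for Grin1 and 0.0474 for Gria1.

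Grin2b in the cortex was 35.3, 43.1, 51.5, 35.9 and 38.2 CPM in TBI rats 6 to 10, inside the sham range of 32.3 to 67.1 CPM. Its log2 difference was -0.24 (95% interval -0.60 to 0.11, adjusted p = 0.298 in edgeR), so that a fall of up to 0.60 is within the interval. With each rat left out it ranged from -0.35 to -0.096, the last without sham rat 1. The share of the library held by the 10 most counted genes moved with treatment in the cortex, as given above. With that share as a covariate the adjusted p in edgeR was 0.0501 for Grin1 (-0.31), 0.0951 for Gria1 (-0.29), 0.0235 for Grin2a (-0.69) and 0.795 for Grin2b, which turned to 0.058, and its part in the falls was not tested. With total counts in place of TMM, which put the median of all genes at 0.21, the adjusted p in edgeR was 0.0638 for Grin1 (-0.25), 0.432 for Gria1 (-0.14), 0.00982 for Grin2a (-0.64) and 0.919 for Grin2b (-0.022). Gria1 was also not called in 1 fit of all 30 libraries (-0.39, adjusted p = 0.0620 in edgeR).

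In the ipsilateral thalamus Grin1 fell after TBI, and Grin2a, Grin2b and Gria1 did not pass the threshold. That is 1 of 4 members where 1.85% of all genes tested in the thalamus were called lower. Grin1 was 503, 313, 305, 339 and 336 CPM in TBI rats 6 to 10, against 468 to 577 CPM in the sham-operated rats. TBI rat 6 lay among the sham libraries and the other 4 TBI libraries lay far below all of them. The log2 fold change was -0.51 (SE 0.14, adjusted p = 0.0456 in edgeR), or 1.43-fold lower. Without TBI rat 6 it was -0.66 (adjusted p = 0.00109 in edgeR) and without rat 2 it was -0.56 (adjusted p = 0.0422 in edgeR). Leaving out any other rat raised the adjusted p in edgeR above the threshold, to 0.0673 without rat 1, 0.0978 without rat 3, 0.0857 without rat 4, 0.115 without rat 5, 0.129 without rat 7, 0.120 without rat 8, 0.0839 without rat 9 and 0.105 without rat 10, with log2 fold changes between -0.51 and -0.47. Without rat 3, 5, 7 or 8, edgeR called 0 genes in the thalamus. The call of Grin1 was also lost with total counts in place of TMM (-0.49, adjusted p = 0.0603 in edgeR) and with the share of the 10 most counted genes as a covariate (-0.38, adjusted p = 0.191 in edgeR), which called 0 genes. It was kept in DESeq2 (-0.52, adjusted p = 0.0100), in limma (-0.62, adjusted p = 0.00446) and in 1 fit of all 30 libraries (-0.53, adjusted p = 0.00202 in edgeR).

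Grin2a in the thalamus was 4.81, 2.39, 1.39, 4.24 and 4.72 CPM in TBI rats 6 to 10, from 36 to 175 reads per library. All of these lay below the lowest sham value of 4.92 CPM, rat 6 only just, a pattern found in 3.27% of thalamic genes. Scaled by total counts instead, TBI rats 6 and 10 had 5.62 and 5.50 CPM, above sham rat 2 with 5.28 CPM. With TMM, the log2 difference of -0.64 for Grin2a nevertheless did not pass the threshold (95% interval -1.25 to -0.02, adjusted p = 0.199 in edgeR), and rats 7 and 8 stood well below the other TBI rats. Thalamic Grin2b was 16.7, 9.12, 10.5, 20.7 and 18.4 CPM after TBI, and again rats 7 and 8 were the lowest. Its log2 difference of -0.56 did not pass either (95% interval -1.07 to -0.05, adjusted p = 0.175 in edgeR), and sham rat 5 with 34.4 CPM stood apart from sham values of 18.0 to 20.6 CPM. Without rat 5 the difference of Grin2b was -0.37 (adjusted p = 0.377 in edgeR). In 1 fit of all 30 libraries, which share their estimate of the spread, both were called, with adjusted p of 0.0434 for Grin2a and 0.0494 for Grin2b in edgeR.

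Gria1 in the thalamus was 69.7, 51.8, 42.9, 41.6 and 51.8 CPM in TBI rats 6 to 10, within the sham range of 35.5 to 72.6 CPM. Its log2 difference of -0.086 had a 95% interval of -0.53 to 0.35 (adjusted p = 0.834 in edgeR) and turned to 0.036 without rat 1, to 0.022 without rat 3 and to 0.36 with the share of the 10 most counted genes as a covariate (adjusted p = 0.168 in edgeR).

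**Figure D3:**
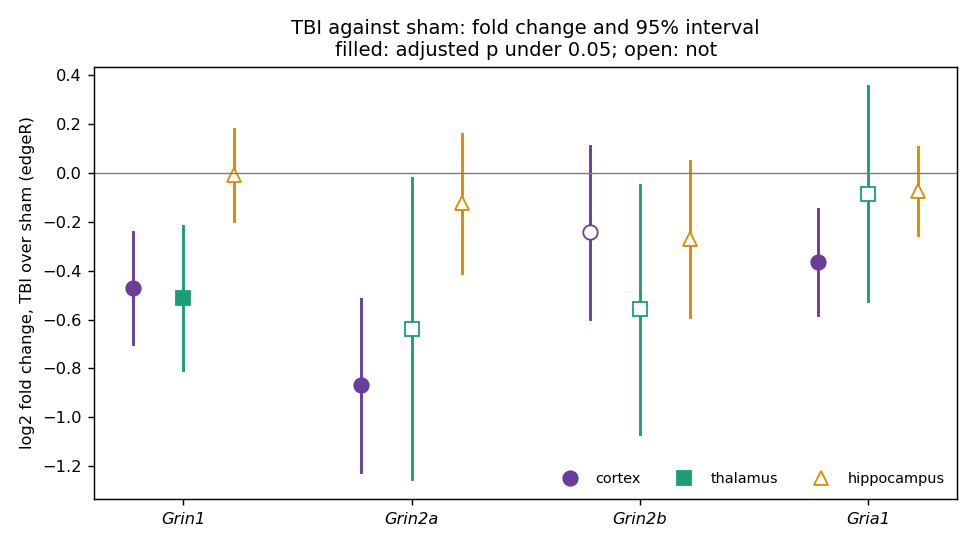
log2 fold change of TBI over sham (y axis, edgeR) with its 95% interval for each gene in the cortex (circles), thalamus (squares) and hippocampus (triangles), filled where the adjusted p is under 0.05. Filled symbols are Grin1, Grin2a and Gria1 in the cortex and Grin1 in the thalamus, and all hippocampal intervals cross 0.

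In the hippocampus none of the 4 subunits was called after TBI. edgeR called 0% of the 16963 genes tested there, with 1432 genes at an unadjusted p under 0.05, none of them a member, and limma called 0 genes. DESeq2 called 41 of the 2722 genes to which it gave an adjusted p, which did not include Grin2a and Grin2b. Grin1 was 586, 647, 701, 738 and 686 CPM in TBI rats 6 to 10, and its mean of 672 ± 57.9 CPM (SD, n = 5) nearly equalled the sham mean of 673 ± 67.3 CPM (SD, n = 5). With total counts in place of TMM, which put the median of all genes at 0.38, the differences of all 4 genes were above 0, at 0.37 for Grin1, 0.29 for Grin2a, 0.20 for Grin2b and 0.32 for Gria1, and none was called. The log2 difference of Grin1 with TMM, -0.0093, had a 95% interval of -0.20 to 0.18 in edgeR. The falls of -0.47 and -0.51 in the cortex and thalamus had intervals of -0.70 to -0.24 and -0.81 to -0.22. Whether the responses differ between areas is tested below. Gria1 was 305, 342, 336, 292 and 256 CPM after TBI, against 300 to 343 CPM in sham. Its log2 difference was -0.075 (95% interval -0.26 to 0.11, adjusted p = 0.847 in edgeR) and -0.018 without TBI rat 10.

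Grin2a in the hippocampus was 70.5, 71.3, 54.6, 55.8 and 39.8 CPM in TBI rats 6 to 10. The 3 lowest of these lay below all sham libraries and the 2 highest above all but sham rat 5, and the log2 difference was -0.13 (95% interval -0.41 to 0.16, adjusted p = 0.837 in edgeR), which was -0.016 without TBI rat 10. The hippocampal column names of rats 5 and 10 share a code that differs from that of the other rats whose names hold one. Its part in these values was not tested. Grin2b was 57.2, 62.5, 61.5, 54.7 and 44.1 CPM after TBI, and its log2 difference was -0.27 (95% interval -0.59 to 0.05, adjusted p = 0.650 in edgeR). This difference rested on sham rats 4 and 5, since without their hippocampal libraries it was 0.000634 (adjusted p = 0.999 in edgeR). Without the same libraries it was -0.045 for Grin1, -0.047 for Grin2a and -0.065 for Gria1, with adjusted p of at least 0.925 in edgeR. Without the hippocampal libraries of rats 3 and 8, none of the 4 genes was called either, with log2 differences of -0.012 for Grin1, -0.12 for Grin2a, -0.35 for Grin2b and -0.12 for Gria1 and adjusted p between 0.444 and 0.978 in edgeR, although 263 other genes were.

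A term for the difference in TBI response between a pair of areas was then fitted. None of the 12 differences for these genes passed the threshold in edgeR over all rats of both areas without a block, while DESeq2 and limma called some of them. The background was 0.44% of genes between cortex and thalamus, 3.04% between cortex and hippocampus and 0% between thalamus and hippocampus, where 2356 genes had an unadjusted p under 0.05, Grin1 among them, and DESeq2 called 172 genes and limma 728. For Grin1 the change in the cortex minus that in the hippocampus was -0.49 (95% interval -0.79 to -0.19, adjusted p = 0.0650 in edgeR). With the rat as a block, since the same animals gave both areas, it was -0.49 with an adjusted p of 0.0148 in edgeR, and it also passed without rat 1 (adjusted p = 0.0496) or rat 5 (adjusted p = 0.0326) in edgeR. For Grin2a this difference was -0.77 (95% interval -1.25 to -0.29, adjusted p = 0.0723 in edgeR, 0.0890 with the rat as a block), which passed without rat 5 (adjusted p = 0.0169) or rat 10 (adjusted p = 0.0407). Both were called in DESeq2, with adjusted p of 0.0232 for Grin1 and 0.0209 for Grin2a, and in limma, with adjusted p of 0.0110 for Grin1 and 0.0433 for Grin2a. Without the hippocampal libraries of rats 4 and 5 the adjusted p in edgeR was 0.147 for Grin1 and 0.0956 for Grin2a, and without those of rats 3 and 8 it was 0.190 and 0.185.

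The other area differences were less certain. For Gria1 the cortex minus hippocampus difference was -0.32 (95% interval -0.61 to -0.04, adjusted p = 0.205 in edgeR), and for Grin2b it was -0.00270 (95% interval -0.50 to 0.50). Without the hippocampal libraries of rats 4 and 5 these were -0.34 for Gria1 and -0.28 for Grin2b, and without those of rats 3 and 8 they were -0.25 and 0.11, none of them called in edgeR. For Grin1 the thalamus minus hippocampus difference was -0.55 (95% interval -0.89 to -0.20, adjusted p = 0.183 in edgeR), and without TBI rat 6, which lay among the sham libraries in the thalamus, it was -0.72 (adjusted p = 0.00353 in edgeR). limma called it over all rats (-0.70, adjusted p = 0.00657). In edgeR it was -0.86 with total counts in place of TMM (adjusted p = 0.161, median of all genes -0.36), -0.50 without the hippocampal libraries of rats 4 and 5 (adjusted p = 0.428) and -0.55 without those of rats 3 and 8 (adjusted p = 0.380). For Grin2a, Grin2b and Gria1 the thalamus minus hippocampus differences were -0.55, -0.33 and -0.049, with -0.62, -0.59 and -0.050 without rats 4 and 5 and -0.56, -0.25 and -0.011 without rats 3 and 8, none of them called in edgeR. Between cortex and thalamus, the differences in response were 0.090 for Grin1, -0.18 for Grin2a, 0.37 for Grin2b and -0.24 for Gria1, with adjusted p of at least 0.831 in edgeR and intervals that all included 0. The interval of Grin2b ran from -0.28 to 1.01, and its difference was 0.049 without sham rat 5. That of Grin2a was -0.043 without TBI rat 9, and that of Gria1 was -0.086 without sham rat 2. Total counts in place of TMM, with the median of all genes at 0.20, gave 0.24 for Grin1, -0.030 for Grin2a, 0.51 for Grin2b and -0.070 for Gria1. None of these was called in edgeR. With the size factors of DESeq2 in edgeR, that of Grin1 was 0.015.

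The ratio of 2 genes within a library does not depend on the scaling between libraries, and its changes between groups do not depend on transcript length. It is given as a description, without a test. In the cortex the Grin2a to Grin2b ratio of read counts was 0.473, 0.430, 0.300, 0.355 and 0.388 in TBI rats 6 to 10, where sham rats 1 to 5 had 0.550, 0.661, 0.642, 0.527 and 0.579. All TBI rats lay below all sham rats, with a mean log2 ratio of -1.38 ± 0.25 (SD, n = 5) against -0.76 ± 0.14 (SD, n = 5), a difference of -0.62. This was the only 1 of 12 combinations of 4 ratios and 3 areas in which TBI and sham did not overlap. The same ratio was 0.252 ± 0.0310 (SD, n = 5) in the sham thalamus and 0.229 ± 0.0620 (SD, n = 5) after TBI. In the hippocampus it was 0.973 ± 0.173 (SD, n = 5) in sham and 1.04 ± 0.150 (SD, n = 5) after TBI. In sham-operated rats the ratio thus stood in the order hippocampus, cortex and thalamus with no overlap between areas, and the widest spread between rats was in the hippocampus, where rats 4 and 5 had the lowest values of 0.724 and 0.895.

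The ratio of Gria1 to Grin1 set the transcript of an AMPA receptor subunit against that of the subunit common to NMDA receptors. The other AMPA receptor subunits were not analysed, so the ratio does not give the balance of the receptor types. In sham-operated rats its mean was 0.483 ± 0.0684 (SD, n = 5) in the hippocampus, 0.163 ± 0.0148 (SD, n = 5) in the cortex and 0.106 ± 0.0308 (SD, n = 5) in the thalamus. After TBI the thalamic ratio was 0.144 ± 0.0161 (SD, n = 5), where the sham rats had 0.141, 0.0758, 0.138, 0.0927 and 0.0847. The log2 difference of TBI from sham in the thalamus was 0.48, and the groups overlapped through sham rats 1 and 3. In the cortex the ratio differed by 0.10 on the log2 scale and in the hippocampus by -0.073, both less than the spread between rats.

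**Figure D4:**
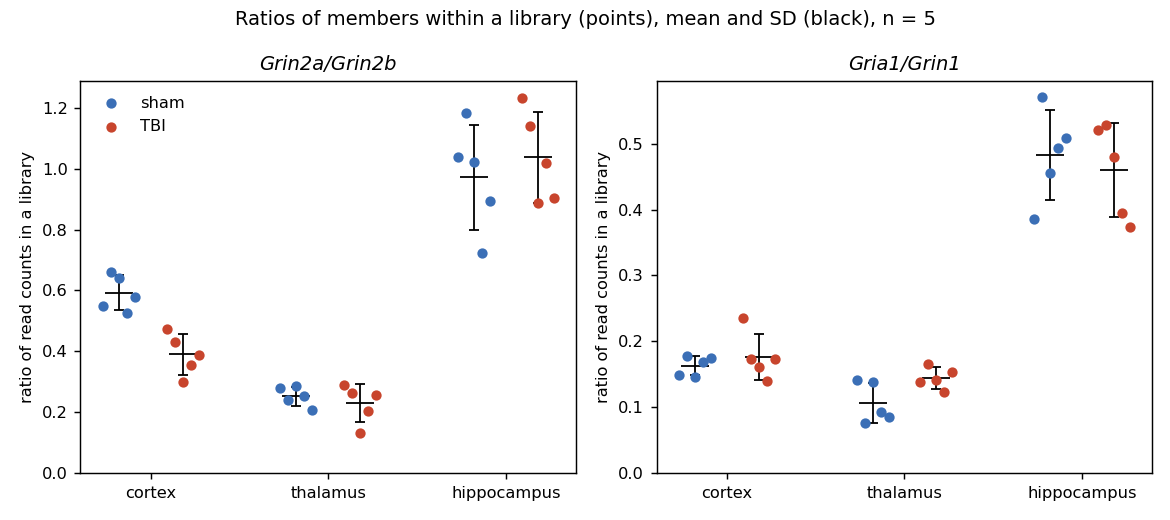
Ratio of read counts within a library (y axis, from 0) for Grin2a to Grin2b and for Gria1 to Grin1 in each area, with 1 point per library (blue sham, red TBI) and the mean and SD of 5 rats in black. The cortical Grin2a to Grin2b ratio is at most 0.473 after TBI and at least 0.527 in sham, and the other groups of TBI and sham overlap.

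Over all libraries, Grin2a and Grin2b had the highest correlation of the pairs among these 4 genes, though not within the hippocampus. After the mean of each area and treatment was subtracted, the correlation of log2 CPM over the 30 libraries, which come from 10 rats and share the scaling, was 0.763 for Grin2a with Grin2b, and their deviations had the same sign in 25 libraries. It was 0.793 within the cortex, 0.805 within the thalamus and 0.610 within the hippocampus, each over 10 libraries. For Grin2b, Grin2a was the fifth most alike of 15598 other genes at 1 CPM or more, whose highest correlation was 0.824. For Grin2a, Grin2b had rank 70, and the highest correlation was 0.895. The correlation of Grin2a with Gria1 was 0.422, and within the cortex, thalamus and hippocampus it was 0.707, 0.286 and 0.743, the last above that of Grin2a with Grin2b. Grin1 with Grin2a gave 0.432 over all libraries and 0.591, 0.632 and -0.511 within these areas. Grin1 with Grin2b gave 0.426, and 0.777, 0.472 and -0.259 by area. For Grin2b with Gria1, 0.110 over all libraries stood beside 0.471, -0.096 and 0.461 by area. Each value by area rests on 10 libraries, and differences between areas in these correlations were not tested. The identifiers most like each gene have no names in the tables used here.

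With the differences between areas and treatments included, the correlation of Grin2a with Grin2b over the 30 libraries was 0.949, and Grin2a was then the third most alike gene to Grin2b. Gria1 correlated with Grin2a at 0.819 and with Grin1 at 0.805, and Grin1 with Grin2b at 0.497. These values mix differences between areas, between treatments and between rats, and the share of each was not tested. All 4 genes had their highest mean in the hippocampus.

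**Figure D5:**
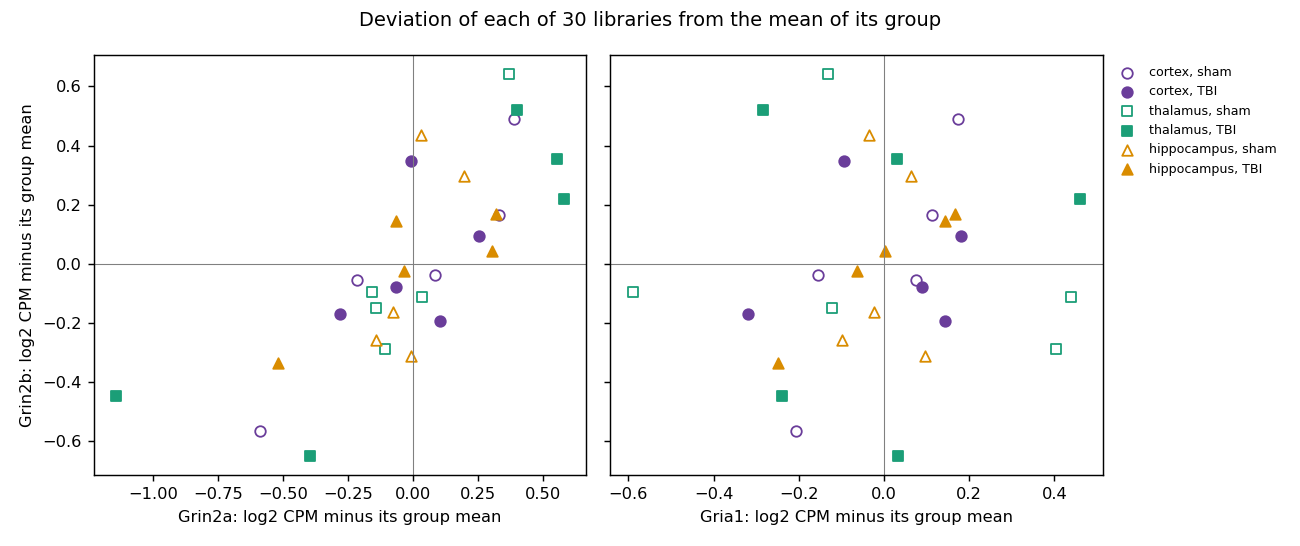
Deviation of Grin2b from its group mean in log2 CPM (y axis) against that of Grin2a (left) and Gria1 (right) in 30 libraries, with symbols by area, open for sham and filled for TBI. Grin2b and Grin2a deviate in the same direction in 25 of 30 libraries, and no such line is seen with Gria1.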

How the data were processed

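mRNA of 3 brain areas of 10 rats was measured in 30 libraries. The authors aligned the reads with STAR to the Rnor_5.0 genome, and the tables they deposited, 1 per area, hold raw counts under Ensembl gene identifiers. The counting tool and the use of strand are not given in the sources used here. All columns were matched to samples by name, and 0 were left unused.

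Tools were edgeR 4.0.16, DESeq2 1.42.0 and limma 3.58.1 in R 4.3.3. Genes were kept by filterByExpr (minimum count 10, minimum total count 15), scaled by TMM and tested with edgeR's quasi-likelihood F test (robust). Adjusted p-values follow Benjamini and Hochberg and cover all genes tested, with a threshold of 0.05. TBI was compared with sham within an area, areas within the 15 sham libraries, and responses by the interaction over the libraries of 2 areas. SE is the log2 difference divided by the square root of F, log2 CPM used a prior count of 3, and intervals cover 95%. The fits were tested on simulated data.

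The rule for named genes took the 4 members in every comparison, list genes past the threshold and partner subunits, and the 3 genes most correlated with each member where a name was at hand, which left the 4 members. Lists of further receptor, scaffold and marker genes were not analysed here, since no identifier matched a name. The members and lists were chosen with earlier results of these data known. The same rats gave all areas, so the rat pairs the libraries, and the mean correlation of their deviations was 0.0540 between cortex and thalamus, 0.117 between cortex and hippocampus and 0.0416 between thalamus and hippocampus. Within groups all 60 pairs of libraries differed beyond sampling noise (chi-square per degree of freedom at least 15.1).

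Alternatives were DESeq2, its size factors (RLE) in edgeR, no filter, limma's voom with sample weights, 1 fit of all 30 libraries, the rat as a block, each rat left out, and the hippocampus without rats 4 and 5 or 3 and 8. Scaling by total counts and the share of the 10 most counted genes as a covariate were added after seeing the data.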

Additional observations from a re-analysis of the deposited data

Results flagged for a closer look

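In the thalamus, the Grin1 level of TBI rat 6 was 503.0 CPM, while the other 4 TBI rats had 305 to 339 CPM. Its gap to the nearest value was 0.830 of the range of the group, above the critical value of 0.71 for 5 samples.

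Also in the thalamus, sham-operated rat 5 had 34.4 CPM of Grin2b, and the other sham-operated rats had 18.0 to 20.6 CPM, which gives a gap of 0.840 of the range. Of 48 groups of 5 libraries examined for levels and ratios, 2 held such a value, and chance flags about 1 in 20 groups.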

How the results depend on the processing

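The falls of Grin2a in the cortex and the area differences of Grin2a and Gria1 that involve the hippocampus kept their call under every alternative run. So did Grin2a and Grin2b between cortex and thalamus and Grin2b between thalamus and hippocampus. With total counts in place of TMM, the median of all genes moved to 0.21 in the cortex, 0.38 in the hippocampus, -0.31 between sham cortex and thalamus, 0.19 between sham cortex and hippocampus and 0.47 between sham thalamus and hippocampus. The log2 differences were then -0.25 for Grin1 and -0.14 for Gria1 in the cortex, -0.49 for Grin1 in the thalamus, 0.37, 0.29, 0.20 and 0.32 for Grin1, Grin2a, Grin2b and Gria1 in the hippocampus (225 genes called), and, for Grin1 in sham, -0.50 between cortex and hippocampus (4687 genes), 0.10 between thalamus and hippocampus and -0.59 between cortex and thalamus, where Gria1 was at 0.0023. Relative to the shifted median, Grin1 and Gria1 lay at -0.46 and -0.34 in the cortex. The difference in response then called 126 genes between cortex and thalamus (median 0.20), 98 between cortex and hippocampus (median -0.16) and 34 between thalamus and hippocampus (median -0.36), the order kept below for these 3 interactions. With the share of the 10 most counted genes as a covariate, values were -0.31, 0.058 and -0.29 for Grin1, Grin2b and Gria1 in the cortex, -0.38 and 0.36 for Grin1 and Gria1 in the thalamus (0 genes) and 0.069 for Grin2b in the hippocampus. One fit of all 30 libraries gave -0.39 for Gria1 in the cortex and -0.66 and -0.59 for Grin2a and Grin2b in the thalamus (3457 genes). DESeq2 called 1950 genes in the thalamus and 41 in the hippocampus, and 204, 1041 and 172 in the interactions, with -0.50 for Grin1 and -0.78 for Grin2a between cortex and hippocampus. limma called 2692 genes in the thalamus and 208, 1180 and 728 in the interactions, with 0.062 for Grin1 in the hippocampus, -0.57 for Grin2b between sham cortex and hippocampus, and interactions of -0.52, -0.74 and 0.094 for Grin1, Grin2a and Grin2b between cortex and hippocampus and -0.70 for Grin1 between thalamus and hippocampus. Without a filter, Grin1 was at 0.010 in the hippocampus, the Grin2b interaction of cortex and hippocampus at 0.010, and 49 genes were called for cortex and thalamus. With the replicate block of the rat, 49 genes were called for cortex and thalamus and 1048 for cortex and hippocampus, where Grin1 was at -0.49, and the block changed no other call of the 4 genes. Without the hippocampal libraries of rats 4 and 5, Grin2b in the hippocampus was at 0.000634 and the cortex and hippocampus interaction called 272 genes. Without those of rats 3 and 8, 263 genes were called in the hippocampus and 126 in that interaction, where Grin2b was at 0.11. The causes of these moves were not tested.

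With each rat left out, Grin1 in the thalamus ranged from -0.66 to -0.47, Grin2a, Grin2b and Gria1 there from -0.78 to -0.44, from -0.70 to -0.37 and from -0.22 to 0.036, and Grin2b in the cortex from -0.35 to -0.096. In the hippocampus Grin1 ranged from -0.047 to 0.051, Grin2a from -0.21 to -0.016, Grin2b from -0.35 to -0.15 and Gria1 from -0.12 to -0.018. In sham, Grin1 and Gria1 between cortex and thalamus ranged from -0.35 to -0.16 and from 0.19 to 0.48, and Grin2b between cortex and hippocampus from -0.65 to -0.27. The interactions of cortex and hippocampus ranged from -0.55 to -0.42 for Grin1, -0.95 to -0.62 for Grin2a and -0.20 to 0.22 for Grin2b. Those of thalamus and hippocampus ranged from -0.72 to -0.48 for Grin1, -0.79 to -0.35 for Grin2a, -0.49 to -0.15 for Grin2b and -0.20 to 0.087 for Gria1. Over the alternatives other than leaving out a rat, these were -0.90 to -0.52 for Grin2a, -0.74 to -0.25 for Grin2b and -0.38 to -0.011 for Gria1. With each rat left out, those of cortex and thalamus ranged from -0.018 to 0.31 for Grin1, -0.41 to -0.043 for Grin2a, 0.049 to 0.55 for Grin2b and -0.38 to -0.086 for Gria1. The genes called ranged from 0 to 2421 in the thalamus, 0 to 1 in the hippocampus, and 35 to 110, 117 to 763 and 0 to 849 in the interactions. At 36 reads in 1 thalamic library, Grin2a had the thinnest counts of the 4 genes.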
